A study of Mus musculus with 32 samples.

Results

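Wild-type CTCF was overexpressed in mouse embryonic stem cells that were not treated with auxin, and these cells were compared with a matched overexpression control by RNA sequencing. The comparison rests on 4 of the 32 libraries of the series, 2 from each group, taken by sample title. It covers the 13938 genes of 14970 listed whose mean value over the 12 overexpression libraries was at least 10. All 12 libraries came from E14 cells, a mouse embryonic stem cell line, with the genotype CTCF AID, grown in serum-free medium with LIF and the inhibitors PD0325901 and CHIR99021. The control cells therefore carried CTCF AID as well, and none of the 4 libraries received indole-3-acetic acid (IAA), the auxin that triggers degradation of a protein with this tag. The 2 control libraries are labelled as an overexpressed control, and the 2 treated ones as overexpressing wild type CTCF (called wt below).

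Of the other overexpression libraries, 2 carry mutated CTCF without IAA by title, and 6 are control, wt and mutated CTCF with IAA, used at 500 µM. For the mutated libraries without IAA and the wt libraries with IAA, the title and the treatment label contradict each other; the 4 libraries compared here have no such conflict. The libraries with IAA show the auxin through Cyp1a1, a target of the receptor that senses indoles. Cyp1a1 lay between 94.8 and 109 in the 4 libraries and between 833 and 946 in the control and wt libraries titled with IAA. The labels used here do not state the vector, its promoter, the species of the added CTCF, what the control construct expressed, or whether each group is 1 clone, so a difference between 2 cell lines and an effect of CTCF cannot be told apart. Nothing says that the 2 libraries of a group came from separate cultures, so p-values measure the spread between these libraries, which may be technical.

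CTCF is a zinc finger protein that binds a long DNA motif, halts cohesin as it extrudes chromatin and so fixes the borders of loops and domains. It also insulates enhancers from promoters, binds many promoters directly and marks the methylation-sensitive control regions of imprinted genes.

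In the text below a value is the authors' normalised count, and a difference is the mean of log2(value + 1) in wt minus that in control, with its standard error (SE) from limma. A gene is called when its Benjamini-Hochberg adjusted p from limma over all 13938 genes is under 0.05. The fit used all 12 overexpression libraries, which share 1 estimate of the spread.

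Ctcf itself (ENSMUSG00000005698.15, chr8:105636568-105682922 in mm10, plus strand, protein coding) gave values of 4134 and 4332 in the control libraries and 9275 and 9481 in the wt libraries. Both wt libraries lay above both controls, on average 2.22-fold higher (1.15 on the log2 scale with SE 0.03 and an adjusted p from limma of 2.49e-08). Cells with mutated CTCF reached 9589 and 9712, which did not differ from wt by the test (log2 difference of mutated minus wt 0.04, adjusted p = 0.502). With IAA the values were 5185 and 5098 in control and 11631 and 11077 in wt, so the messenger rose 1.14 on the log2 scale there as well (adjusted p = 1.31e-08). A value counts reads of the tagged endogenous gene and of any added copy that aligns to it, and protein was not measured. Of 21 tested members of the CTCF and cohesin list, Ctcf was the single one called with limma, and at an unadjusted p under 0.05 the list had 2 members higher and 0 lower. Rad21, the kleisin subunit of cohesin, stood at 9831 and 9796 in control and at 9954 and 9309 in wt (difference -0.03, adjusted p = 0.796). Nipbl, the cohesin loader, differed by 0.04 (adjusted p = 0.690), Smc3 by 0.03 (adjusted p = 0.723) and Wapl, which releases cohesin, by 0.04 (adjusted p = 0.659).

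**Figure D1:**
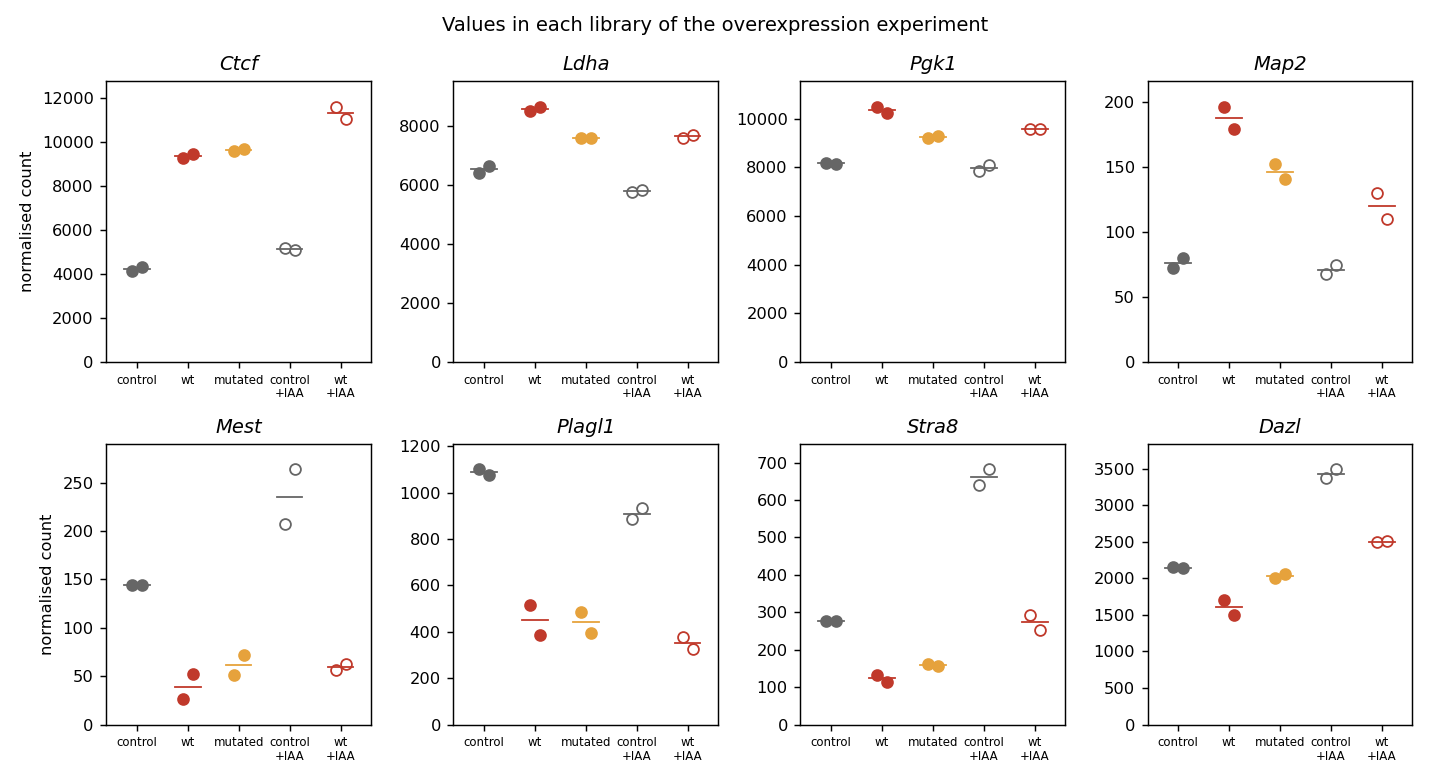
Normalised counts (vertical axes, from 0) of 8 genes in each library; each point is a library and each bar the mean of 2. Filled points are without IAA and open points with IAA, by title. Without IAA, Ctcf, Ldha, Pgk1 and Map2 lie higher in both wt libraries than in both controls, and Mest, Plagl1, Stra8 and Dazl lie lower. All 8 genes were called, so the same values chose them.

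Beyond Ctcf few genes were called, and most of the called differences were small. Of the 13938 genes, 125 were called, which is 0.897%. Of these, 70 were higher in wt (0.502%) and 55 lower (0.395%). The wt and control values of all 125 did not overlap, but the same values chose these genes. The share of all genes without overlap was not counted. An unadjusted p under 0.05 was found for 1716 genes. Only 18 of the called genes changed at least 2-fold, 5 of them higher and 13 lower. The median difference was 0.35 among the genes called higher and -0.46 among those called lower, beside a median of -0.0006 over all genes tested. The genes called were well expressed: their median mean value was 2045 for the higher and 1011 for the lower set, against 427 for all genes tested. The count leans on the spread pooled over 12 libraries. In a fit of the 4 libraries alone 2 genes were called, Ctcf (adjusted p = 0.00065) and the provisional gene Gm49388, which had values of 91.6 and 105 in control and is listed at 0 in both wt libraries (adjusted p = 0.0379 there and 0.101 in the fit of 12). Leaving out a single library gave 59 calls without control replicate 1, 76 without control replicate 2, 60 without wt replicate 1 and 61 without wt replicate 2.

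**Figure D2:**
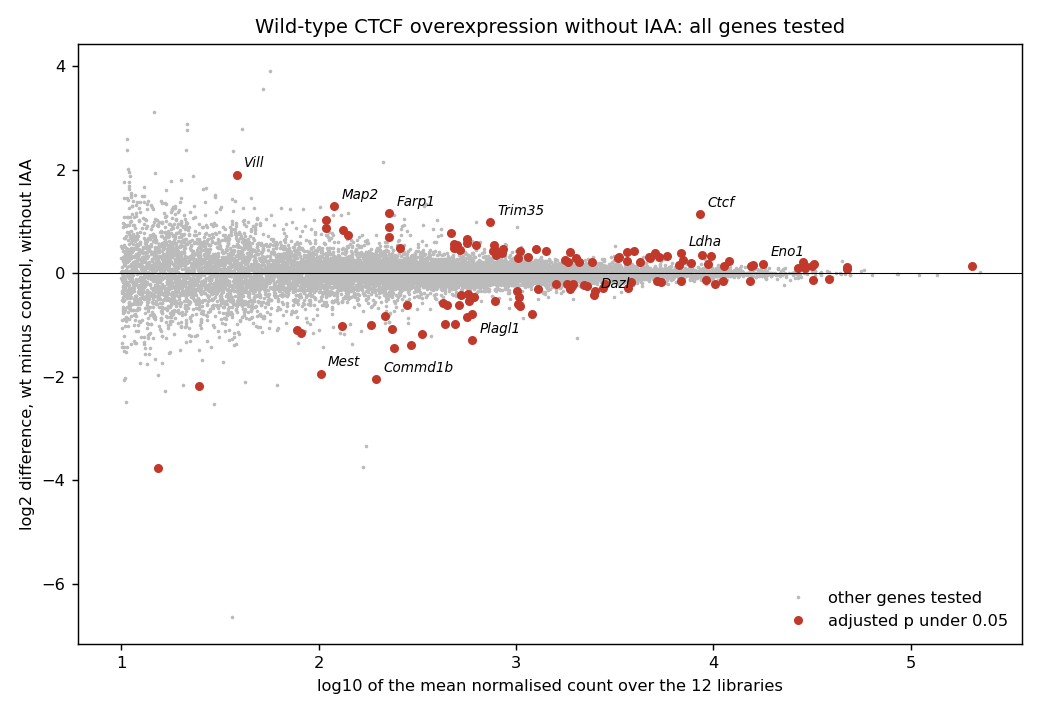
Each point is a gene tested, placed by the log10 of its mean normalised count over 12 libraries (horizontal) and its log2 difference of wt minus control without IAA (vertical). Red points are the 125 genes called. Ctcf, at 1.15, stands apart from the other called genes right of 3 on the horizontal axis, which lie within 1 unit of 0.

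All 8 stem cell markers checked had values from 3228 to 33709 in the 4 libraries. Of 8 fibroblast markers 3 were listed, and their summed level was 130 and 89.5 in control and 120 and 141 in wt. The 3 mesoderm markers summed to 216 and 202 in control and 293 and 272 in wt, without overlap, and none was called. Primitive endoderm markers (3 of 4 listed) summed to 60.9 and 36.7 in control and 88.3 and 59.6 in wt. Trophoblast markers (2 of 3 listed) summed to 36.0 and 54.0 in control and 62.5 and 64.7 in wt, also without overlap. Neural markers (3 of 4 listed) summed to 2191 and 2260 in control and 1967 and 2021 in wt, and 1 was called lower. The sums themselves were not tested. Whether cells of other types play a part in the results was not tested. Pou5f1, the core pluripotency factor, stood at 16892 and 16047 in control and 16924 and 16614 in wt (difference 0.03, adjusted p = 0.770), and Nanog differed by -0.02 (adjusted p = 0.835). Of 28 tested genes of core and naive pluripotency, 2 were called higher and 1 lower, beside 0.502% and 0.395% of all genes. The gene called lower was Dppa3, with the largest difference of the list (-0.62, described with the germ cell genes). Klf4, a factor of the naive state, rose from 3292 and 3228 to 3913 and 3808 (difference 0.24, adjusted p = 0.0293). Tfcp2l1, another naive factor, rose by 0.10 (adjusted p = 0.0171), from 26278 and 26620 to 28231 and 28403. Genes of the formative and primed state (17 tested), trophoblast (12) and mesoderm (11) had no called member with limma, and at an unadjusted p under 0.05 they gave 0, 2 and 1 higher and 3, 1 and 0 lower. Of 10 tested primitive endoderm genes 1 was called higher (Lamc1), 8 lay above 0, and the median was 0.24. No call of Klf4 survived leaving out any 1 library (adjusted p up to 0.155), and Tfcp2l1 lost its call in 3 of 4 such fits (up to 0.118) and with each chromosome centred on its median (0.08, adjusted p = 0.0891).

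Several glycolytic enzymes and hypoxia-responsive genes rose together. Glycolysis turns glucose into pyruvate and, through lactate dehydrogenase, into lactate, and the transcription factor HIF raises most of its genes when oxygen is low. Of 32 tested members of the list, 9 were called higher and 0 lower, beside 0.502% and 0.395% of all genes. At an unadjusted p under 0.05, limma had 17 members higher and 0 lower, and 27 of 32 lay above 0. The median difference of the list was 0.14, against -0.0006 over all genes. Aldoa is tested under 2 gene IDs, the second at a very low value.

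By role, the called transporters were Slc16a3 and Slc2a3. Slc16a3, which exports lactate, gave 149.6 and 125 in control and 275 and 235 in wt (difference 0.89, SE 0.13, adjusted p = 0.0116). Slc2a3, a glucose transporter, gave 32248 and 32676 in control and 34752 and 34938 in wt, a rise of 0.10 (adjusted p = 0.0177) that was smaller and not called after quantile normalisation (0.063, adjusted p = 0.295). Both wt libraries exceeded both controls for each transporter, although the second differed by far less. Within the pathway, Pfkl, the liver form of phosphofructokinase, rose from 1161 and 1211 to 1707 and 1571 (difference 0.47, adjusted p = 0.00784). Pgk1 (ENSMUSG00000062070.12, chrX:106187100-106203699, plus strand), phosphoglycerate kinase, rose from 8171 and 8147 to 10496 and 10215, a difference of 0.34 (SE 0.02, adjusted p = 0.000196). Ldha (ENSMUSG00000063229.15, chr7:46841475-46855627, plus strand), lactate dehydrogenase A, rose from 6409 and 6670.1 to 8507 and 8673, a difference of 0.39 (SE 0.03, adjusted p = 0.000196). These enzymes and the transporters showed no overlap between groups, as did every called gene, but the same values chose them.

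Smaller rises were called for Eno1, enolase (difference 0.18, adjusted p = 0.00242), Pkm, pyruvate kinase (0.15, adjusted p = 0.0101), and Pgam1, phosphoglycerate mutase (0.14, adjusted p = 0.00725). Bnip3, a mitophagy receptor induced by low oxygen, rose from 536 and 455 to 762 and 721 (difference 0.58, adjusted p = 0.0409). Not every step of the pathway moved. Gapdh stood at 87502 and 85296 in control and 85388 and 84591 in wt (difference -0.02, adjusted p = 0.607), Hk2 differed by 0.06 (adjusted p = 0.702), Tpi1 by 0.10 (adjusted p = 0.129) and Aldoa by 0.11 (adjusted p = 0.101). When 1 library was left out, Ldha, Pgk1 and Eno1 kept their calls in all 4 fits (largest adjusted p 0.00250, 0.00383 and 0.0193), whereas Bnip3 lost it in all 4 (up to 0.1995), Slc2a3 in 3 (up to 0.120), Slc16a3, Pfkl and Pkm in 2 (up to 0.0802, 0.0652 and 0.0801) and Pgam1 in 1 (0.0541). The list then had 6 members called without either control library or wt replicate 2, and 4 without wt replicate 1. Without the trend in spread it had 3, and with groups by treatment label 1.

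The promoters of 2 of these genes are shown because their members moved together and share a short motif. Sequences are RefSeq windows of GRCm38.p6, 250 bases before to 50 after a transcription start, written 5′ to 3′ on the gene's strand, with ACGTG or its reverse complement CACGT in capitals. ACGTG is the core of the element that HIF binds; it also lies within the E-box CACGTG, so the motifs overlap. The Ldha window spans chr7:46845554-46845853 on the plus strand and holds 5 matches counted over both strands, and is 1 of 2 windows of this gene. The Pgk1 window spans chrX:106186850-106187149 on the plus strand and holds 2.
Ldha: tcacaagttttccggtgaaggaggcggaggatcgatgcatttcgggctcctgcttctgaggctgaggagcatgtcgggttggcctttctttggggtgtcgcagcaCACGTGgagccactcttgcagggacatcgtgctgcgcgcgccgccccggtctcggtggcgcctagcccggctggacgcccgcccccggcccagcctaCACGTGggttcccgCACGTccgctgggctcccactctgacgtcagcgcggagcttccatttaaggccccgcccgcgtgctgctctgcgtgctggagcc
Pgk1: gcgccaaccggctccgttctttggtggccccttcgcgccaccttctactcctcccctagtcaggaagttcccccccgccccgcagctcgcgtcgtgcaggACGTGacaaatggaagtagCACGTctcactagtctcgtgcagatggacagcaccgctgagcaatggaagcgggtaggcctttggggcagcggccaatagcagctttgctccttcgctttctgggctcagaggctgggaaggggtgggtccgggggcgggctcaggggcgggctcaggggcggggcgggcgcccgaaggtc
The motifs were picked after the expression values were seen, and a match describes letters only. Over all genes with a window, 3014 of 10299 (29.3%) hold ACGTG on either strand in at least 1 window. In the glycolysis and hypoxia list 20 of 27 genes with a window do (74.1%), among them 6 of the 8 called genes that have one. Of the 70 genes called higher 50 have a window and 18 hold it (36%), and of the 55 called lower 14 of 47 do (29.8%). The core consensus of CTCF itself was found in 84 of the 10299 genes (0.816%), in 1 of the 50 called higher and in 0 of the 47 called lower.

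Several genes of germ cells and oocytes fell. Such genes are normally silent outside the germline, and ground-state stem cells, which have little DNA methylation, express several of them. Of 26 tested members of the germline list, 0 were called higher and 2 lower, beside 0.502% and 0.395% of all genes. The median difference was -0.21, and 9 of 26 lay above 0, against 49.8% of all genes. At an unadjusted p under 0.05, limma had 0 members higher and 6 lower. In either direction, 1716 of all 13938 genes reached that level. The 2 calls became 0 without the trend in spread and with groups by treatment label. They became 1 without either control library, without wt replicate 1, or with chromosomes centred, where Xlr3a had an adjusted p of 0.0545. The called members were Dazl and Xlr3a. Dazl (ENSMUSG00000010592.9, chr17:50279395-50293636, minus strand), an RNA-binding protein of germ cells, gave 2152 and 2142 in control and 1707 and 1501 in wt (difference -0.42, SE 0.06, adjusted p = 0.00589). As in every gene called lower, both wt libraries were below both controls.

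Further germline genes stand outside that list and were either among the largest falls or picked after their values were seen. Stra8 (ENSMUSG00000029848.11, chr6:34920163-34939344, plus strand), the retinoic acid target that starts meiosis, gave 277 and 276 in control and 134 and 113 in wt, a difference of -1.17 (SE 0.14, adjusted p = 0.00379). Scml2, a Polycomb-like protein of the male germline, fell from 269.6 and 206 to 83.1 and 95.3 (difference -1.40, adjusted p = 0.0140). Tex13b, a testis-expressed gene, fell from 99.2 and 95.1 to 44.0 and 46.1 (difference -1.09, adjusted p = 0.0140). In each of the 3 the higher wt value was under the lower control value, as in every gene called lower. Dmrt1 (difference -0.61, adjusted p = 0.00784) and Sohlh2 (-0.40, adjusted p = 0.0253), both transcription factors of gonad or germ cells, were lower too. Khdc3, a maternal-effect gene of the oocyte, fell from 891 and 870.0 to 589.6 and 624 (difference -0.54, adjusted p = 0.00784). Dppa3 (Stella), which shields the maternal genome from demethylation, fell from 376 and 363 to 216 and 267 (difference -0.62, adjusted p = 0.0148) and was the 1 gene called of 19 tested in the DNA methylation list. Dazl and Stra8 kept their calls when any 1 library was left out (largest adjusted p 0.0460 and 0.0321), Dppa3 and Scml2 lost it in 3 of 4 fits (up to 0.0985 and 0.104) and Tex13b in 4 (up to 0.0985).

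The promoters of Dazl and Stra8 are shown because both genes fell while their windows differ in CpG content; CG is in capitals and the source is as above. The Dazl window spans chr17:50293571-50293870 on the minus strand and holds 28 CpG. The Stra8 window spans chr6:34920698-34920997 on the plus strand and holds 10.
Dazl: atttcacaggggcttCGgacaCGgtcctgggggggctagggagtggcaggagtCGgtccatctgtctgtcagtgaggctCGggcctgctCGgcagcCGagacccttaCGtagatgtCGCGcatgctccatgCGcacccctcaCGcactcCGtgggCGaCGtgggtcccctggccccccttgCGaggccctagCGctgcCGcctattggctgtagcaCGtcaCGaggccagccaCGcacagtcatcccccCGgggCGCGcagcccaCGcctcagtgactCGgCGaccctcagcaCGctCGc
Stra8: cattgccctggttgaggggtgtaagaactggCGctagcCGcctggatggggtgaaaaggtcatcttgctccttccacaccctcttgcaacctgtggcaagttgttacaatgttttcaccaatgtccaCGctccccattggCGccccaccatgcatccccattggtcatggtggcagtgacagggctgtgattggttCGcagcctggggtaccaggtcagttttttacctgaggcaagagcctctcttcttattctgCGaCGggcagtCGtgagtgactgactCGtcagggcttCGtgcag
Taking for each gene the window with the most CpG, the median was 16 over the 47 genes called lower, 22.5 over the 50 called higher and 22 over all 10299. DNA methylation was not measured here.

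On the X chromosome, several related Xlr genes fell, of which Xlr3a and Xlr5a were neighbours among the genes tested. Xlr5a went from 396 and 457 to 167 and 146 (difference -1.44, adjusted p = 0.00299), Xlr3c from 692 and 747 to 366 and 358 (-0.99, adjusted p = 0.00119), and Xlr5b from 275 and 341 to 148 and 155 (-1.01, adjusted p = 0.0140). Xlr3a, from the germline list, fell by 0.45 on the log2 scale (adjusted p = 0.0389). The Xlr genes are lymphocyte-regulated relatives of a synaptonemal complex protein and are near-identical copies, so the split of reads between them is uncertain; Xlr5a also overlaps Xlr5c on the same strand. Xlr3c and Xlr5a kept their calls without any 1 library, whereas Xlr3a and Xlr5b lost theirs in 3 of 4 fits (adjusted p up to 0.195 and 0.0962). In all, 12 of the 55 genes called lower lie on the X chromosome, which holds 512 of the genes tested, and 2 of the 70 called higher do. The X median was 0.002.

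Imprinted genes moved in both directions. Imprinted genes are expressed from 1 parental copy, and CTCF is known at several of their control regions. Of 38 tested members 2 were called higher and 3 lower, beside 0.502% and 0.395% of all genes. The list median was -0.01. Mest (ENSMUSG00000051855.15, chr6:30723547-30748465, plus strand), a paternally expressed hydrolase gene that overlaps Copg2 on the opposite strand, gave 145 and 144 in control and 26.1 and 52.3 in wt. This was a difference of -1.94 (SE 0.29, adjusted p = 0.0127). Plagl1 (ENSMUSG00000019817.18, chr10:13060504-13131694, plus strand), a paternally expressed zinc finger gene that restrains growth, gave 1101 and 1076 in control and 516 and 385 in wt (difference -1.29, SE 0.15, adjusted p = 0.00379). Peg3, another paternally expressed zinc finger gene, fell slightly, from 1249.9 and 1263 to 1086 and 1079.6 (difference -0.21, adjusted p = 0.0492).

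Igf2r, the maternally expressed receptor that clears IGF2, rose from 3287 and 3301 to 3897 and 4153 (difference 0.29, adjusted p = 0.00581). Slc38a4, a paternally expressed amino acid transporter, rose from 424 and 475 to 645 and 659 (difference 0.54, adjusted p = 0.0476). Leaving out 1 library ended no call of Plagl1 or Igf2r (largest adjusted p 0.0344 and 0.0440). It ended that of Mest without either control library (up to 0.0775), and those of Peg3 (up to 0.194) and Slc38a4 (up to 0.248) in all 4 fits. The list then had 1 member called lower without control replicate 1 or control replicate 2, and 1 called higher without any 1 of the 4 libraries. Without the trend in spread, 1 imprinted gene was called lower and 0 higher. At an unadjusted p from limma under 0.05 the list had 3 higher and 7 lower. In either direction, 1716 of all 13938 genes reached that level.

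**Figure D3:**
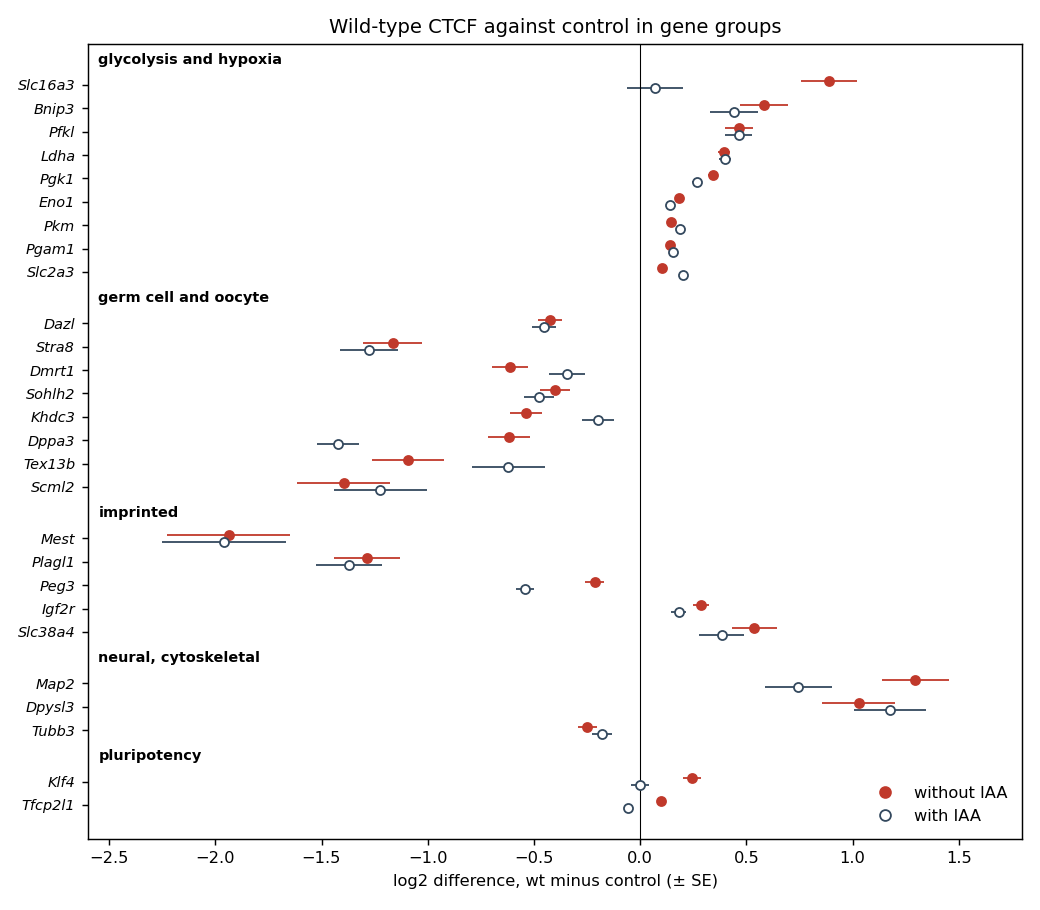
Log2 difference of wt minus control with its SE (horizontal) for named genes (vertical), without IAA in red and with IAA in open circles from other libraries. Some of the genes headed germ cell and oocyte were picked after their values were seen. Every gene shown was called without IAA, so its side of 0 there was set by the choice. The glycolytic genes shown lie right of 0 in both settings and the germ cell genes shown left of 0 in both. Klf4, Tfcp2l1 and Slc16a3 lie near 0 with IAA. Without IAA, 27 of all 32 tested glycolysis and hypoxia members and 9 of all 26 tested germline members lay above 0.

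Among the largest rises apart from Ctcf were Map2, Farp1 and Dpysl3. Map2 (ENSMUSG00000015222.18, chr1:66175273-66442583, plus strand), a microtubule protein of neuronal dendrites, gave 72.0 and 79.8 in control and 196 and 179 in wt (difference 1.30, SE 0.16, adjusted p = 0.00408). Farp1, a guanine nucleotide exchange factor that acts in dendrites, rose from 155 and 191 to 362 and 412 (difference 1.16, adjusted p = 0.00784). Dpysl3, a collapsin response mediator, rose from 66.9 and 68.1 to 125 and 154 (difference 1.03, adjusted p = 0.0178). Nos1, neuronal nitric oxide synthase, went from 401 and 356 to 672 and 629 (difference 0.78, adjusted p = 0.00581). These genes are known from neurons, but neural genes did not rise as a list. Of 14 tested, 2 were called higher (Map2 and Dpysl3) and 1 lower, beside 0.502% and 0.395% of all genes. The list median was -0.12. The one that fell was Tubb3, neuronal beta tubulin, from 1381 and 1409 to 1175 and 1171 (difference -0.25, adjusted p = 0.0318).

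Vill, a villin-like actin-binding protein, had the largest fitted rise among the called genes, from 14.9 and 17.1 to 59.3 and 65.6 (difference 1.90, SE 0.30, adjusted p = 0.0140), at a low level. Trim35, a ubiquitin ligase, rose from 464 and 399.5 to 843 and 861 (difference 0.98, adjusted p = 0.00132). The rises of Map3k5 (stress kinase ASK1), Syne2 (nesprin 2 of the nuclear envelope), Pdzrn3, Prelid2 and Lad1 lay between 0.66 and 0.88. Map2, Nos1 and Trim35 kept their calls without any 1 library (largest adjusted p 0.0373, 0.0486 and 0.0123). Vill, Pdzrn3, Prelid2, Lad1, Map3k5 and Tubb3 lost theirs in all 4 fits (up to 0.100, 0.2425, 0.177, 0.164, 0.0998 and 0.148). Dpysl3 and Syne2 did so in 3 (up to 0.145 and 0.189) and Farp1 in 2 (up to 0.0655).

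Among the other large falls, Commd1b went from 225 and 219.6 to 39.3 and 71.9 (difference -2.04, adjusted p = 0.0178). It overlaps Commd1 on the same strand, so the assignment of its reads is uncertain. H1f10, a linker histone, fell from 342 and 287 to 155 and 142 (difference -1.08, adjusted p = 0.0130). Parm1 fell by 1.02 (adjusted p = 0.0158), Spopl, an adaptor of ubiquitin ligases, by 0.97 (adjusted p = 0.0134) and Fbxo28 by 0.79 (adjusted p = 0.00321) on the log2 scale. Ppp2r2c, a regulatory subunit of protein phosphatase 2A, fell from 724 and 707 to 404 and 395 (difference -0.84, adjusted p = 0.00304). Pramel6, from the list of the 2-cell-like state, fell from 21.8 and 22.5 to 5.44 and 3.06 (difference -2.18, adjusted p = 0.0476), at a low level and within a family of near-identical copies. Ppp2r2c and Fbxo28 kept their calls without any 1 library (largest adjusted p 0.0270 and 0.0234), while Commd1b, H1f10 and Parm1 lost theirs in 3 of 4 fits (up to 0.1096, 0.0985 and 0.1115), Pramel6 in 4 (up to 0.2295) and Spopl in 2 (up to 0.1015).

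Other lists had 1 or 2 called members or none, beside 0.502% of all genes called higher and 0.395% lower. Fn1, fibronectin, rose from 27905 and 27798 to 32216 and 30888 (difference 0.18, adjusted p = 0.00299), and Lamc1, a laminin chain, by 0.23 (adjusted p = 0.0178); they were the 2 called of 18 collagen and laminin list members tested, whose median was 0.18. Sfrp1, a secreted Wnt inhibitor, rose from 3034 and 3129 to 3835 and 3848 (difference 0.32, adjusted p = 0.00204), the only call among 22 Wnt pathway genes. Nqo1, a detoxifying reductase, fell from 1840.0 and 1815 to 1464 and 1408 (difference -0.35, adjusted p = 0.00379), 1 of 12 tested genes of the aryl hydrocarbon receptor list. Mki67, a proliferation marker, rose by 0.15 (adjusted p = 0.0318) as 1 of 29 tested G2/M genes, and Hmgcs1, of cholesterol synthesis, fell by 0.15 (adjusted p = 0.0163) as 1 of 21. Clustered protocadherins, whose promoter choice depends on CTCF, had 0 calls among 15 tested with limma and 0 at an unadjusted p under 0.05, with a median of -0.28. The Hox, p53, integrated stress response, FGF-ERK, BMP and Nodal, interferon, MHC class I and NuRD lists had no call with limma either, and 0 to 3 members higher and 0 to 4 lower at an unadjusted p under 0.05. Sfrp1, Nqo1 and Fn1 kept their calls without any 1 library (largest adjusted p 0.0157, 0.0333 and 0.0193), and Lamc1 and Hmgcs1 lost theirs in 3 fits (up to 0.123 and 0.1096) and Mki67 in 4 (up to 0.178).

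Expression also shifted with position and with transcript length. Of 15 mitochondrially encoded genes tested, which include the ribosomal RNAs mt-Rnr1 and mt-Rnr2, 5 were called higher, with a chromosome median of 0.12, and their share of the summed values was 2.07 and 2.19% in control and 2.27 and 2.39% in wt. Among them mt-Nd1, a subunit of complex I, rose from 36763 and 35870.2 to 40080.0 and 39035 (difference 0.12, adjusted p = 0.0128). Of the nuclear chromosomes other than Y, chromosome 8 had the lowest median difference, -0.04, where those of the others ran from -0.01 to 0.02. It holds Ctcf, at 105.6 Mb.

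On the part of chromosome 8 from 100 Mb onwards, a boundary set after the values were seen, the median was -0.10 over 225 genes, and 75.1% of them lay below 0; on the rest it was -0.02 over 491. The called genes there were Utp4, Nqo1, Sf3b3, Aars and Tubb3, which fell, and Ctcf and Calb2, which rose. As deviations from each gene's mean, the library medians of this stretch lay between 0.04 and 0.07 in all 4 control libraries, with and without IAA. They lay between -0.04 and -0.02 in all 8 libraries with added CTCF, mutated or not. Copy number was not measured and its part was not tested. With each chromosome centred on its median in every library, an alternative added after the data were seen, 2 genes of this stretch were called lower; Nqo1 kept its call and Tubb3 lost it.

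**Figure D4:**
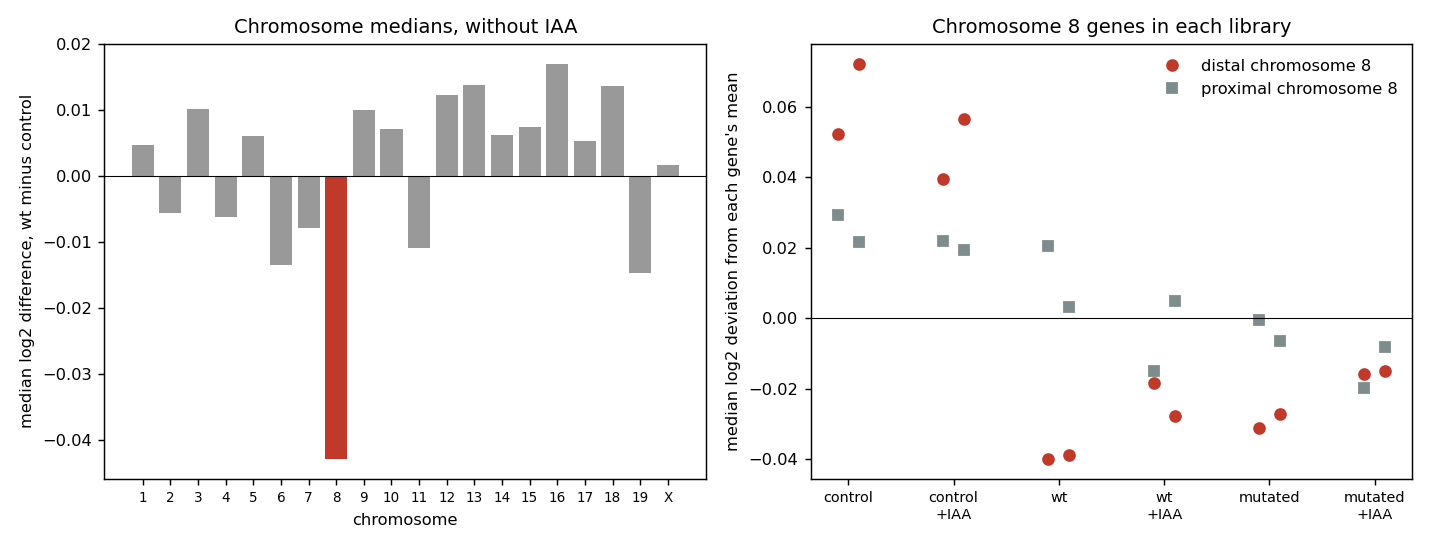
Left, median log2 difference of wt minus control without IAA over the genes of each chromosome, with chromosome 8 in red. Right, median deviation on the log2 scale of chromosome 8 genes from their means in each library, distal from 100 Mb (circles) and proximal (squares). Distal medians are above 0 in all 4 control libraries and below 0 in all 8 others.

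The median transcript length was 4354 nt for genes called higher and 2976 nt for genes called lower, against 3245 nt for all tested. The 10% of genes with the longest transcripts (median 8157 nt) held 24 of the 70 rises and 3 of the falls, and had a median difference of 0.03. The 10% with the shortest (median 882 nt) had one of -0.02. Syne2, Macf1 and Ttn, which encode giant structural proteins and of which the last 2 were picked after their values were seen, were among the rises. With the length trend removed in each library, also added after the data were seen, 111 genes were called, 56 higher and 55 lower, and 12 of those 56 lay among the longest 10%. Under that setting Syne2 lost its call (0.55, adjusted p = 0.104), as did Mki67 (0.098, adjusted p = 0.163), Tfcp2l1 (0.054, adjusted p = 0.180), Slc38a4 (0.53, adjusted p = 0.0595) and Pramel6 (-2.17, adjusted p = 0.0533). The other 45 genes named by rule apart from Ctcf, the 9 glycolysis and hypoxia genes among them, kept theirs. RNA integrity was not given and its part was not tested.

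The same constructs were compared with IAA in libraries whose values do not enter the differences above. These libraries do enter the shared estimate of the spread, so calls with and without IAA are not independent. With IAA, 3.98% of all genes were called higher and 2.27% lower. Of the 70 genes called higher without IAA, 61 lay above 0 with IAA, 37 were called higher and 1 lower, and their median was 0.20. Of the 55 called lower, 45 lay below 0, 28 were called lower and 1 higher, and their median was -0.20. Over all 13938 genes, which are not independent, the differences without and with IAA had r = 0.129 and rho = 0.198. Whether the cells with and without IAA came from the same lines is not stated, so a difference between lines cannot be told apart from an effect of CTCF there either.

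Mest was 207 and 264 in control and 56.2 and 62.9 in wt with IAA (difference -1.96, adjusted p = 0.00231). Plagl1 was 886 and 933 against 377 and 327 (-1.37, adjusted p = 0.000365), and Stra8 was 639.7 and 682 against 294 and 252 (-1.28, adjusted p = 0.000303). Stra8 values were higher with IAA in both groups, and the difference of its effects with and without IAA was not called (adjusted p = 0.886). Ldha differed by 0.40 with IAA (adjusted p = 1.43e-05) and Pgk1 by 0.27 (adjusted p = 8.59e-05). In the glycolysis and hypoxia list 14 of 32 members were called higher with IAA and 1 lower, and its median was 0.16. Slc16a3 was 333 and 359 in control and 365 and 361 in wt with IAA, a difference of 0.07 (adjusted p = 0.840); the difference of its 2 effects was not called (adjusted p = 0.0643).

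A test of the difference between the effects with and without IAA called 197 genes, 1.41% of all. Among the 125 genes it called 7 of the 70 rises and 11 of the 55 falls; this test uses the values that chose those genes. Named genes among them were Dppa3, whose fall was larger with IAA (-1.42 against -0.62, adjusted p of the difference 0.0175), and H1f10, which lay at 0.42 with IAA against -1.08 without (adjusted p = 0.00926).

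**Figure D5:**
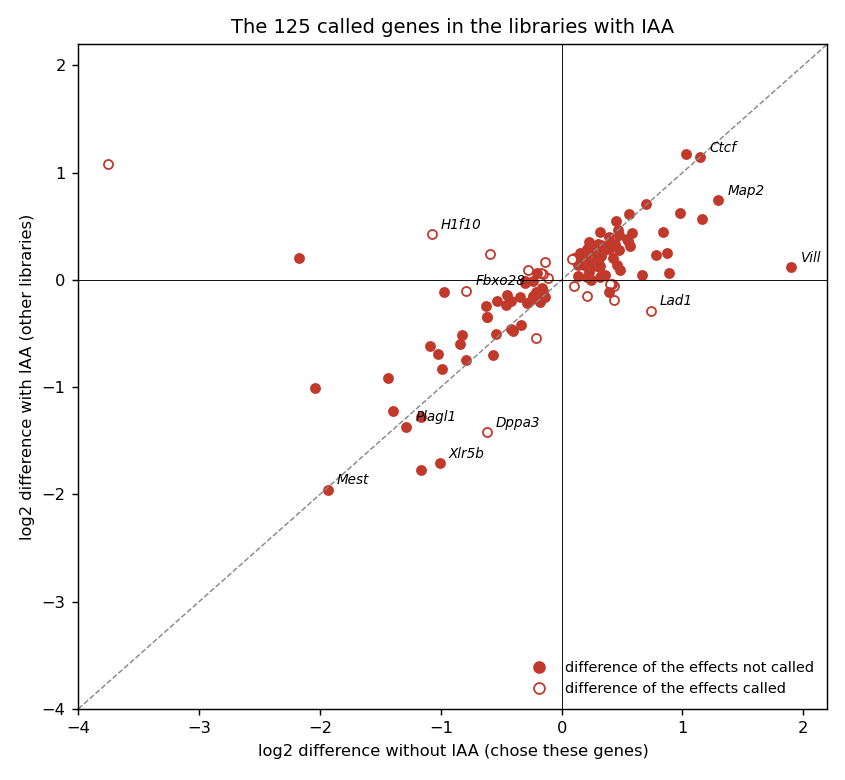
The 125 genes called without IAA, by their log2 difference of wt minus control without IAA (horizontal, the values that chose them) and with IAA (vertical, other libraries). Open circles are the 18 genes whose effects differ by the test, and the dashed line marks equal differences. Of the 70 rises 61 lie above 0 with IAA, and of the 55 falls 45 lie below.

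The comparison of mutated with wt CTCF shares the wt libraries, and that of mutated CTCF with control shares the controls. The shared libraries chose the called genes, which favours rises lying lower and falls lying higher in mutated than in wt. Against control it favours the same direction as in wt. The counts and adjusted p from limma below are therefore set side by side only and are not independent tests of these genes. Against control, 462 of all 13938 genes were called higher and 312 lower in the mutated libraries. Of the 70 rises, 42 were called higher there and 2 lower, and of the 55 falls 20 were called lower and 2 higher. Against wt, over all genes 3.49% were called higher and 2.73% lower in mutated than in wt. Of the 70 rises, 22 were lower and 8 higher in mutated than in wt, and of the 55 falls 28 were higher and 2 lower. Trim35 reached 826 and 893 in the mutated libraries and Plagl1 485 and 397, and neither differed from wt (adjusted p = 0.963 and 0.956). By contrast, Slc16a3 stood at 131 and 123 in the mutated libraries, lower than in wt by 1.00 on the log2 scale (adjusted p = 0.00193), and Khdc3 at 1064 and 921, higher than in wt by 0.71 (adjusted p = 0.000502). Dppa3 and Dazl were also higher in mutated than in wt (0.72, adjusted p = 0.00220, and 0.34, adjusted p = 0.00542). In the glycolysis and hypoxia list 12 of 32 members were lower in mutated than in wt and 0 higher. The treatment label of the mutated libraries says IAA, and their Cyp1a1 values were 142 and 138.

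Loss of CTCF was measured in other libraries of CTCF AID cells, after 12 h of IAA against 0 h. In serum-free medium 9.39% of genes rose and 8.4% fell. Of the 70 genes that rose with wt CTCF, 17 were called higher and 11 lower after loss; of 54 genes tested among those that fell, 13 were higher and 15 lower. Across 13367 genes the 2 sets of differences had r = 0.02. In serum 7.73% rose and 9.25% fell after loss. Of 68 tested rises, 7 were higher and 31 lower there, and of 49 tested falls 7 were higher and 9 lower, with r = -0.07 across 13181 genes. Dmrt1 and Sohlh2 fell after loss in serum-free medium as they did with added CTCF (-1.16, adjusted p = 0.00156, and -0.75, adjusted p = 0.000798), and so did Stra8 (-2.91, adjusted p = 9.82e-05). Mest rose after loss (0.82, adjusted p = 0.00919) and fell with added CTCF, as did Dppa3 (1.47, adjusted p = 0.000218). In the control cells of the overexpression experiment, however, Stra8 was higher with IAA than without. Those control cells had 1784 of 13938 genes called higher with IAA and 1746 lower. Of the 70 rises, 23 were called higher and 23 lower there, and of the 55 falls 20 higher and 11 lower. That comparison shares the control libraries that chose these genes.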

How the data were processed

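Polyadenylated RNA of E14 mouse embryonic stem cells was sequenced. Per the labels, the deposited values are the authors' normalised counts per gene, treated here as a signal that is never negative. The submitters' processing notes name Trim Galore, Bowtie2, STAR, RSEM and DESeq2 and the build mm10, without roles or versions; the normalisation is not given in the sources used here.

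Groups follow the sample titles, 2 libraries each. Deposited totals lay between 19073890 and 19546135 over the 12 overexpression libraries, and replicates of the 2 groups correlated with r from 0.985 to 0.987 across genes. Low values were not whole multiples of a step (best step 0.812 to 1.25, coherence 0.323 to 0.461), so reads could not be recovered, depth is unknown and no count test was run. The table had 0 unmapped columns.

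Genes with a mean of at least 10 were tested on log2(value + 1), a scale that understates changes of low genes, with limma 3.58.1 in R 4.3.3 (moderated test with a trend in spread, Benjamini-Hochberg adjustment at 0.05). The procedure was also run on simulated counts that had the same spread setting for every gene. That setting differs from the deposited values, so the run does not measure how reliable the calls here are. Of 2 libraries against 2, an exact permutation test of a single gene could not reach 0.05, so none was run. Coordinates come from GENCODE M21, matched by gene ID.

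The genes and lists were chosen with earlier results of these data known. Genes were named by rule: Ctcf; from the calls with a settled symbol and a higher-group mean of 50 or more, 14 per direction by size; any gene called from the 4 libraries alone; called members of the lists; and up to 4 uncalled members of each list. Genes picked otherwise are said to be. Alternatives covered the pseudocount, filter, rescaling, variance model, replicate block, treatment label and left-out libraries.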

Additional observations from a re-analysis of the deposited data

Results flagged for a closer look

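For 6 of the genes named by rule and called, the effect of wild-type CTCF differed between libraries with and without IAA by an interaction test in limma. The fall was larger with IAA for 2 genes: Dppa3 (-0.80 on the log2 scale, adjusted p = 0.0175) and Peg3 (-0.33, adjusted p = 0.0250; -0.54 with IAA and -0.21 without). For 3 genes the effects had opposite signs in the 2 settings. H1f10 differed by 1.501 (adjusted p = 0.00926), Lad1 by -1.02 (adjusted p = 0.0311; -0.29 with IAA and 0.74 without) and Tfcp2l1 by -0.16 (adjusted p = 0.00673; -0.06 with IAA and 0.10 without). Fbxo28 differed by 0.69 (adjusted p = 0.0256): it fell without IAA (-0.79) and lay at -0.10 with IAA. The values without IAA chose these genes.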

How the results depend on the processing

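The rise of Ctcf stayed called under each of the settings in which it was refitted (log2 difference 1.11 to 1.29). The count of 125 called genes did not hold. It was 48 without the trend in spread, 18 with a 2-fold minimum, 11 with groups by treatment label (which pools the wt libraries titled with IAA with those without) and 2 with the 4 libraries alone; leaving out a library gave 59 to 76. With the 4 libraries alone all 50 other genes named by rule and called lost their calls. Chromosome centring ended those of Lamc1, Peg3, Pramel6, Slc38a4, Tfcp2l1, Tubb3 and Xlr3a, and quantile normalisation those of Pramel6 and Slc2a3. Pseudocounts, filters and rescaling left it within 1.5 times; quantile normalisation gave 120 calls, 65 higher and 55 lower. With groups by treatment label 4 named genes changed sign without being called: Nqo1 (0.21), Peg3 (0.093), Slc2a3 (-0.19) and Tubb3 (0.17).

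A replicate block gave 113 calls, 105 of them among the 125, and ended those of Bnip3, Pdzrn3, Peg3, Pramel6 and Syne2. Same-numbered control and wt libraries deviated together with r = 0.04 (-0.06 to 0.10 over 15 pairs of groups), so they share only a number.

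For wt against control with IAA the count of 872 became 570 without the trend, 530 with only the groups compared, 147 with a 2-fold minimum and 415 to 464 with a library left out. Mutated against wt went from 868 to 427, 216, 50 and 360 to 479, and mutated against control from 774 to 370, 186, 43 and 321 to 394, in the same order. The difference of the effects went from 197 to 123, 123, 71 and 101 to 164. With a 2-fold minimum the degradation counts of 2438 (serum-free) and 2462 (serum) became 609 and 369, and with a library left out 1007 to 1096 and 812 to 1909. The authors' normalisation and the unknown depth limit every small difference given here.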

Other observations

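Some called genes outside the lists were picked here after their values were seen; differences are log2 of wt minus control with adjusted p from limma. Nkx1-2, a homeobox gene of the caudal epiblast, rose from 833 and 777 to 1196 and 1156 (0.55, adjusted p = 0.00304). Its value was lower in mutated than in wt CTCF (-0.40, adjusted p = 0.00416), but that comparison shares the wt libraries that chose the gene. Islr2, a membrane protein of developing axons, fell from 309.6 and 319 to 203 and 228 (-0.54, adjusted p = 0.0179) and was lower with IAA as well (-0.50, adjusted p = 0.00765). Tasor2, a relative of a silencing complex subunit, fell from 1481 and 1574 to 1059 and 967 (-0.59, adjusted p = 0.0365), and lay at 0.24 with IAA; its effects differed (adjusted p of the difference 0.0283). Neighbouring called genes that moved in the same direction included mt-Nd4 with mt-Nd5, mt-Nd5 with mt-Nd6, Xlr3a with Xlr5a, and Gm5128 with Gm7903. Both mitochondrial pairs contain mt-Nd5, so they are not independent of each other.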
